A study of Mus musculus with 3 samples.

Results

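Acetylated chromatin with H3K4me1 at only 1 of 2 flanking positions was described in hematopoietic stem cells. The cells came from C57BL/6 mice, 24 months of age, and were sorted out of bone marrow as SP-KSL-CD150+. The members are 2629 of the 93413 H3K27ac regions of 1 chromatin immunoprecipitation sequencing library, and they were chosen by the measured positions of both marks. Each lay on an autosome and was at least 1000 bp wide. Its summit, the base of highest H3K27ac signal, lay outside every H3K4me1 region, and exactly 1 of the 2 positions 1 kb from the summit lay inside an H3K4me1 region. The side with H3K4me1 at that position is called the marked side, and the other the bare side. The labels name no treatment and no altered gene. H3K27ac, H3K4me1 and input DNA have 1 library each, all labelled as technical replicates from biological replicate 1, and how many animals were pooled is not stated. The input library was not analysed here. With 1 library per mark no difference has a replicate check, so no p-value is given. Differences between classes of regions are descriptions of these libraries, and nothing is called particular to one class.

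H3K27ac is an acetylation of histone H3 found at active promoters and enhancers. H3K4me1 is a methylation of the same histone tail that marks enhancers and the shoulders of active promoters, where the nucleosomes nearest to the start of transcription usually carry H3K4me3 in its place. A summit of acetylation outside H3K4me1 with H3K4me1 beside it is therefore an arrangement often met at active promoters. H3K4me3 was not among the files analysed here, and promoters, gene starts and stem cell marker genes could not be assigned because no gene annotation of build mm9 was used here. For the same reason no gene is named and no sequence is printed. Coordinates are those of mm9, counted from 1.

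The rule used the width and summit position of the H3K27ac region and the position of H3K4me1 at 3 points. Those values are given as descriptions only. The height of acetylation, the reach of the acetylated region to each side, the strength of H3K4me1 and the surroundings beyond 1 kb were not part of the rule. An H3K4me1 region that covers a position at 1 kb can still extend past it. Depth was read from the summits, where the members held a median of 43 H3K27ac reads (quartiles 31 and 58, lowest 12). The marked-side H3K4me1 regions held a median of 31 reads at their summits (quartiles 26 and 35). Intervals of shares are exact Clopper-Pearson 95% intervals over regions. They include counting error and nothing else: the reads carry no molecular identifiers, so copies of a molecule can be counted more than once, and nearby regions depend on each other.

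One-sided regions made up a large part of the acetylated summits outside H3K4me1 in regions of 1000 bp or more. Of the 14098 autosomal H3K27ac regions of 1000 bp or more, 8032 had their summit inside H3K4me1 and 6066 outside. Of these 6066 bare summits, 2629 were one-sided (43.3%, interval 42.1 to 44.6%), 2907 had H3K4me1 at both positions (47.9%) and 530 at neither (8.74%). Where the position of lower coordinate had H3K4me1, the position of higher coordinate had it in 2907 of 4164 summits (69.8%, interval 68.4 to 71.2%). Where the lower position lacked it, the higher one had it in 1372 of 1902 (72.1%, interval 70.1 to 74.1%). H3K4me1 on one side was thus found about as often whether or not the other side carried it. The higher-coordinate side was the marked one in 1372 of the 2629 members (52.2%, interval 50.3 to 54.1%).

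The members were as strongly acetylated as the summits with H3K4me1 on both sides. Their fold over the local background, the authors' own value at the summit, had a median of 12.4 (quartiles 9.13 and 16.8, range 2.70 to 43.4). The both-sided summits had a median of 12.7 (quartiles 9.46 and 16.8), the summits with H3K4me1 at neither position 11.6 (quartiles 8.27 and 15.96), and the summits inside H3K4me1 6.80 (quartiles 5.38 and 9.16). The quartile ranges of the one-sided and both-sided summits nearly coincided, and the ratio of their medians was 0.977. In regions of 1500 to 2000 bp that ratio was 0.956, and in regions of 3000 bp or more 1.06. It also passed to the other side of 1 with the positions at 500 bp (1.17) or 2000 bp (1.05), so no order of the classes is read from it. A fold of 10 or more was reached by 1818 members (69.2%, interval 67.3 to 70.9%). The background for that count is 69.6% of all bare summits, 41.1% of all autosomal H3K27ac regions of 1000 bp or more and 7.75% of all 92455 autosomal H3K27ac regions, so the members' share lies at the level of bare summits in general.

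The share of one-sided arrangements changed little with the strength of acetylation once the summit lay outside H3K4me1. Among bare summits it was 47.2% below 6-fold (170 of 360, interval 41.97 to 52.5%), 42.3% from 10-fold to 15-fold (910 of 2153, interval 40.2 to 44.4%) and 45.2% at 20-fold or more (376 of 831, interval 41.8 to 48.7%). The intervals of these classes overlap. Among all wide regions the one-sided share rose from 5.18% below 6-fold to 40.5% at 20-fold or more. Over the same classes the share of summits outside H3K4me1 went from 10.97% to 89.5%. By width, the one-sided share of bare summits was lowest at 1500 to 2000 bp (37.5%, interval 35.2 to 39.8%) and highest at 3000 bp or more (53.0%, interval 47.9 to 58.1%).

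**Figure D1:**
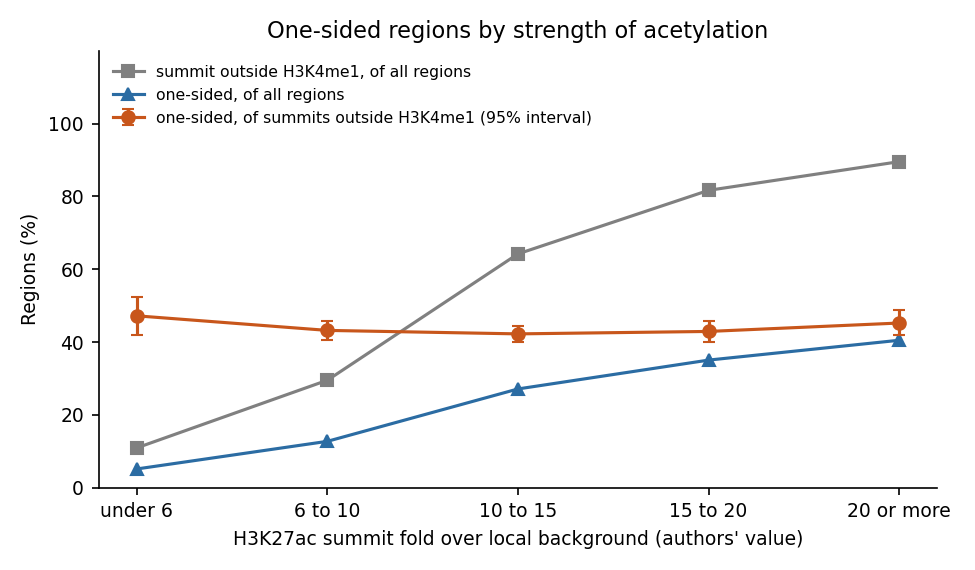
Share of autosomal H3K27ac regions of at least 1000 bp (vertical axis, percent) by the authors' fold at the H3K27ac summit (horizontal axis). Squares are summits outside H3K4me1 and triangles one-sided regions, both of all regions; circles are one-sided regions of the summits outside H3K4me1 with exact 95% intervals. Circles stay between 42.3% and 47.2% while the squares rise from 10.97% to 89.5%.

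Most members were not one-sided beyond the single position that the rule tests. On the bare side 2193 of the 2629 (83.4%, interval 81.9 to 84.8%) had H3K4me1 within 2 kb of the summit, and 436 (16.6%, interval 15.2 to 18.1%) had none. In 1051 members (39.98%) an H3K4me1 region lay between the summit and the bare position and ended before it. In 1142 (43.4%) the nearest H3K4me1 on the bare side began at 1 to 2 kb, in 218 (8.29%) at 2 to 5 kb, and in another 218 none lay within 5 kb. H3K4me1 began in the first 100 bp past the bare position in 307 members and ended in the last 100 bp before it in 334. When the summit had any H3K4me1 within 2 kb on exactly 1 side, a condition chosen after seeing the data, 584 summits remained, or 9.63% of the bare summits of the same width. The word one-sided is therefore used below for the rule and not for a chromatin state that covers all members.

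**Figure D2:**
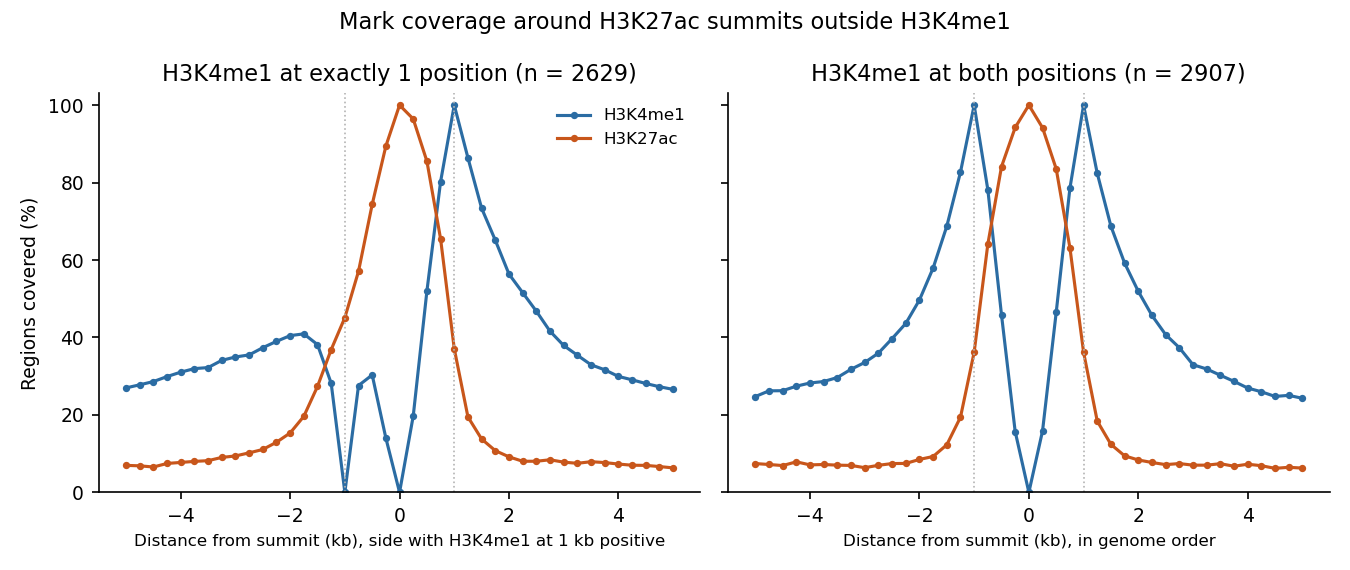
Share of regions covered by an H3K4me1 region (blue) or an H3K27ac region (orange), in percent, by distance from the H3K27ac summit in kb. Left, the 2629 one-sided members with the marked side positive; right, the 2907 both-sided summits in genome order. Dotted lines are the positions 1 kb from the summit, where H3K4me1 is fixed by the rule; past the bare position it returns to 40.5% at 2 kb.

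The sides differed in H3K4me1 near the summit and, taken over all members together, were alike farther out. The rule fixes H3K4me1 at 1 kb on each side, and a region that covers this position also covers others near it. The difference near the summit is therefore a description. At 500 bp H3K4me1 covered 52.0% of members on the marked side and 30.3% on the bare side. At 2 kb the values were 56.4% and 40.5%, at 5 kb 26.6% and 26.97%, and at 20 kb 18.4% and 17.5%. The likeness at 5 kb sums the 4 arrangements of bare-side H3K4me1 described below, which differ. Marked and bare sides had 22.5% and 12.7% at 5 kb in the first and 30.1% and 38.2% in the second. The values were 34.9% and 63.8% in the third, and 19.7% and 0% in the fourth, where the grouping fixes the 0%. Acetylation, which the rule did not orient, covered 85.5% of members at 500 bp on the marked side and 74.4% on the bare side. At 1 kb that order was turned, with 37.1% on the marked and 45.1% on the bare side, and at 1.5 kb it was 13.8% and 27.3%. Within 50 kb the members had a mean of 4.47 other H3K27ac summits on each side. That mean also sums unlike arrangements, with marked and bare means of 3.88 and 3.48 in the first and 4.81 and 5.23 in the second. In the third they were 5.95 and 7.27, and in the fourth 4.11 and 2.42.

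The marked flank of the members was much like a flank of both-sided summits in edge distance and width, and the rule chose both in the same way. Each had to begin within 1 kb of the summit and to cover the position at 1 kb. The likeness in edge distance, width and summit position is therefore a description. Its H3K4me1 region began a median of 480 bp from the summit (quartiles 298 and 689 bp) and was 1463 bp wide (quartiles 971 and 2292 bp). For both-sided summits, with each side counted, the edge lay at 528 bp (quartiles 336 and 712 bp) and the width was 1294 bp. The H3K4me1 fold on the marked side was 6.04 (quartiles 4.93 and 7.16), between the stronger and the weaker flank of both-sided summits, at 6.90 and 4.98. The summit of that H3K4me1 region lay a median of 1051 bp from the acetylation summit, close to the tested position. The acetylated region reached into marked-side H3K4me1 in 2295 members (87.3%, interval 86.0 to 88.5%) and overlapped it by a median of 354 bp. Across members the height of acetylation and the fold of the marked flank were nearly unrelated (Spearman rho 0.062 over 2629 regions of 1 pair of libraries).

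Grouping the members by the H3K4me1 on their bare side separated 4 arrangements. The grouping was chosen with the distances in view and uses the H3K4me1 list. The acetylated reach that is compared between the groups comes from the other library. In regions that must be 1000 bp wide in all, a short reach to one side goes with a longer one to the other, so the reaches of the 2 sides are not independent.

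In the first arrangement, with 1051 members, the bare side carried a weaker shoulder of H3K4me1, and little of either mark lay beyond it. The grouping itself keeps this shoulder within 1 kb of the summit and lets the marked flank run past 1 kb, so its width is a description. It began a median of 327 bp from the summit, was 451 bp wide (quartiles 333 and 585 bp) and had a fold of 4.21 with 21 summit reads, against 5.90 and 30 reads on the marked side. The marked flank was the stronger of the 2 in 823 of 1051 (78.3%, interval 75.7 to 80.8%). All autosomal H3K4me1 regions also had a median of 4.21-fold, so the shoulder was weak only beside the marked flank. The grouping bounds the width of the shoulder, and the part of width in this contrast of fold was not tested. Acetylation reached 865 bp on the marked side (quartiles 674 and 1045 bp) and 562 bp on the bare side (quartiles 377 and 736 bp), and it reached farther on the marked side in 788 members (74.98%, interval 72.2 to 77.6%). At 2 kb H3K4me1 covered 53.6% of these members on the marked side and 13.4% on the bare side.

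In the second arrangement, with 1142 members, the bare side held a longer acetylated stretch free of H3K4me1. Acetylation reached a median of 1223 bp to the bare side (quartiles 781 and 1548 bp) and 800 bp to the marked side (quartiles 534 and 1048 bp). It reached farther on the marked side in 355 members (31.1%, interval 28.4 to 33.9%), the opposite of the first arrangement. The nearest bare-side H3K4me1 began at a median of 1223 bp. The marks did not as a rule abut there: acetylation reached this H3K4me1 in 547 members (47.9%, interval 44.97 to 50.8%), and its reach minus the edge distance had quartiles of -523 and 284 bp. Across these members reach and edge distance were weakly related (Spearman rho 0.13 over 1142 regions of 1 pair of libraries). The fold of this H3K4me1, 5.90 (quartiles 4.63 and 7.16), was close to the 6.08 of the marked flank, and the marked flank was the stronger in 604 members (52.9%, interval 49.9 to 55.8%). The H3K4me1-free gap around the summit spanned a median of 1742 bp, against 855 bp in the first arrangement and 1041 bp around both-sided summits. This order of the gaps follows from the distances that define the groups.

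In the third arrangement, with 218 members, the H3K4me1-free gap often held another acetylated region. By definition of the group the gap is wide, and it spanned a median of 3142 bp (quartiles 2723 and 3745 bp). Another H3K27ac summit lay between the member's summit and the next H3K4me1 on the bare side in 111 of 218 (50.9%, interval 44.1 to 57.7%), against 18.9% in the second arrangement (216 of 1142) and 27.5% in the fourth (60 of 218). At 1 kb acetylation covered 72.9% of these members on the bare side and 47.7% on the marked side. This coverage includes the member's own region, which covered the bare position in 107 of 218 (49.1%) and the marked position in 86 (39.4%). Within 20 kb these members had a mean of 3.38 other H3K27ac summits on the bare and 2.76 on the marked side. Acetylated regions were thus more numerous on the bare side than on the marked side here.

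In the fourth arrangement, with 218 members, the bare side by definition had no H3K4me1 within 5 kb, and it held fewer other acetylated regions than the marked side. The next H3K4me1 on that side lay a median of 18.6 kb away (quartiles 10.9 and 36.3 kb over 217 members). For the remaining member no H3K4me1 region followed on its chromosome. Acetylation reached 857 bp on the marked side and 542 bp on the bare side, and farther on the marked side in 155 members (71.1%, interval 64.6 to 77.0%). Another H3K27ac summit lay within 5 kb on the bare side of 21 members (9.63%) and on the marked side of 65 (29.8%). Within 20 kb the counts were 86 (39.4%) and 132 (60.6%). Before the next H3K4me1 on the bare side, another H3K27ac summit lay in 60 of 218 (27.5%, interval 21.7 to 33.96%). From 20 to 100 kb, beyond the distance that defines the group, the mean number of H3K27ac summits was 4.92 on the bare and 5.94 on the marked side, and that of H3K4me1 summits 7.78 and 8.89. The members of this group were as strongly acetylated as those of the first, with a median of 11.8-fold in both.

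**Figure D3:**
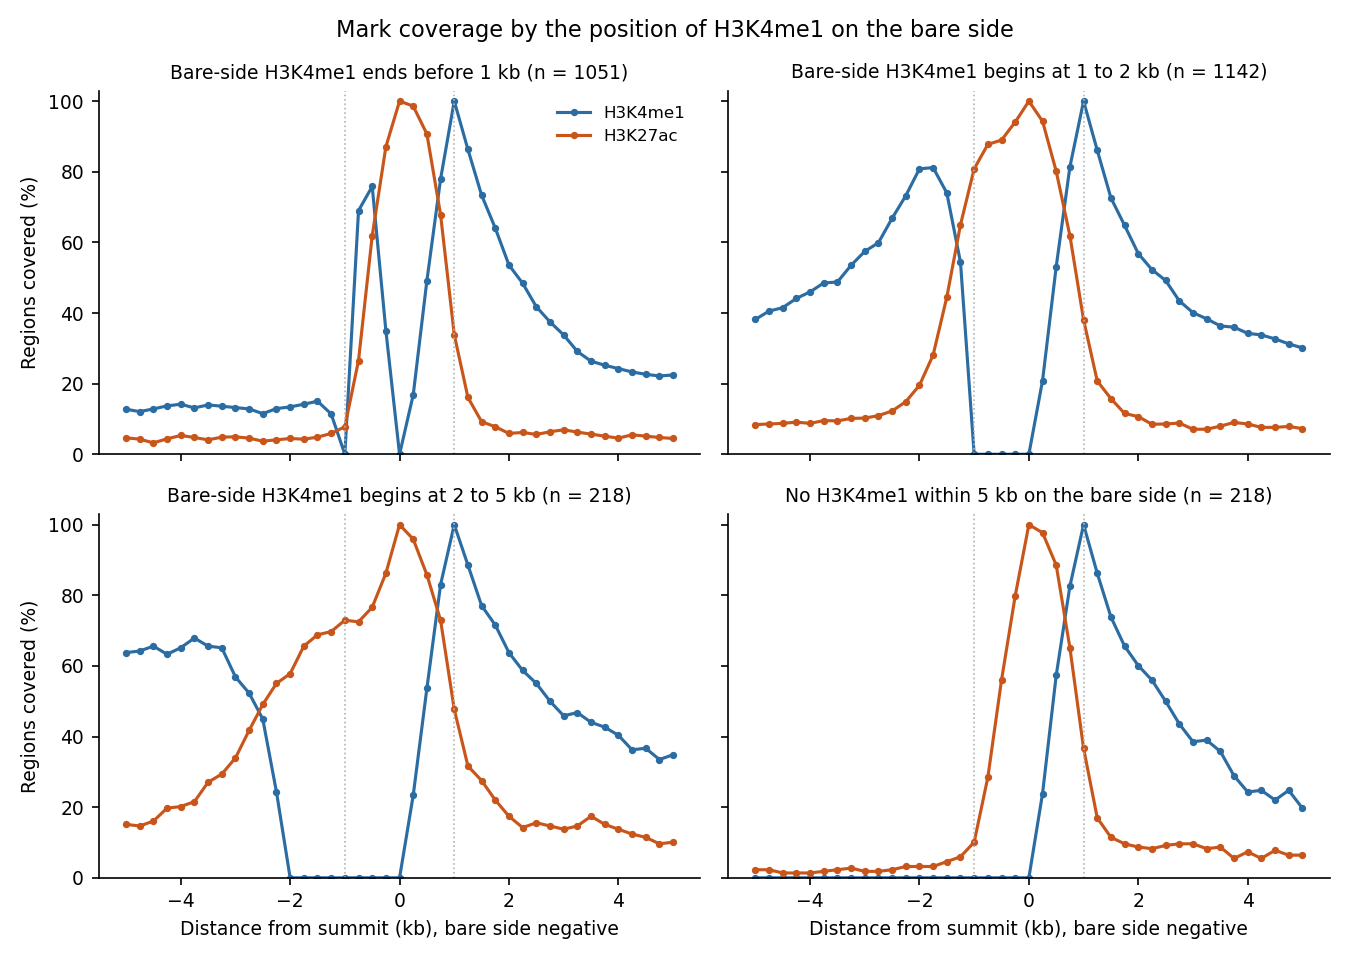
Share of members covered by H3K4me1 (blue) or H3K27ac (orange), in percent, by distance from the summit in kb with the bare side negative, for the 4 arrangements of bare-side H3K4me1. Dotted lines are the positions 1 kb from the summit. At the bare position acetylation covers 7.80% and 10.1% of members in the first and the fourth arrangement, and 80.8% and 72.9% in the second and the third.

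**Figure D4:**
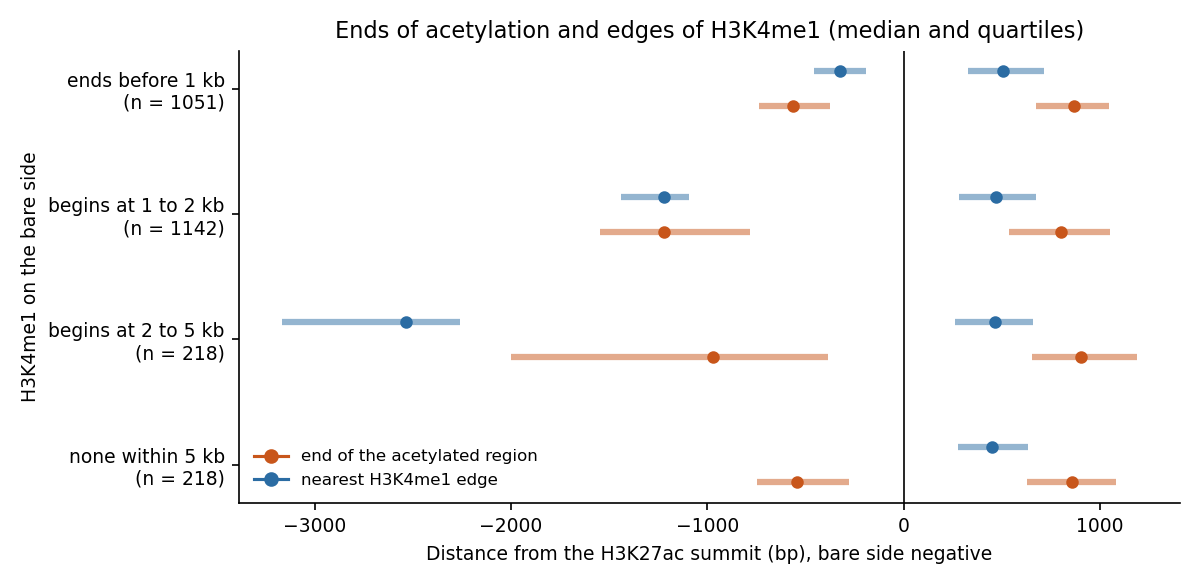
Distance from the H3K27ac summit in bp (bare side negative) of the ends of the acetylated region (orange) and of the nearest H3K4me1 edges (blue) in the 4 arrangements; points are medians and bars run from the lower to the upper quartile. The bare-side edge of the last arrangement lies off the axis at a median of 18.6 kb and is not drawn. Marked-side medians are alike in all 4, and bare-side acetylation ends at 562, 1223, 973 and 542 bp.

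Acetylation of the bare position itself went with H3K4me1 farther out on the same side. The acetylated region of 923 members (35.1%, interval 33.3 to 36.97%) covered the bare position and that of 832 (31.6%, interval 29.9 to 33.5%) the marked position. Where it covered the bare position, H3K4me1 began at 1 to 2 kb on that side in 734 of 923 members (79.5%, interval 76.8 to 82.1%). Where it did not, H3K4me1 began there in 408 of 1706 (23.9%, interval 21.9 to 26.0%), and in 986 (57.8%) it had ended before 1 kb. At 2 kb on the bare side H3K4me1 covered 70.2% of the first set and 24.4% of the second, and at 5 kb 44.1% and 17.7%. On the marked side the same sets did not part in this way, with 55.9% and 56.6% at 2 kb and 30.4% and 24.5% at 5 kb. The first set was also wider, with a median of 2321 bp against 1334 bp, and stronger, with 14.2-fold against 11.8-fold; the part of width in the difference was not tested.

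**Figure D5:**
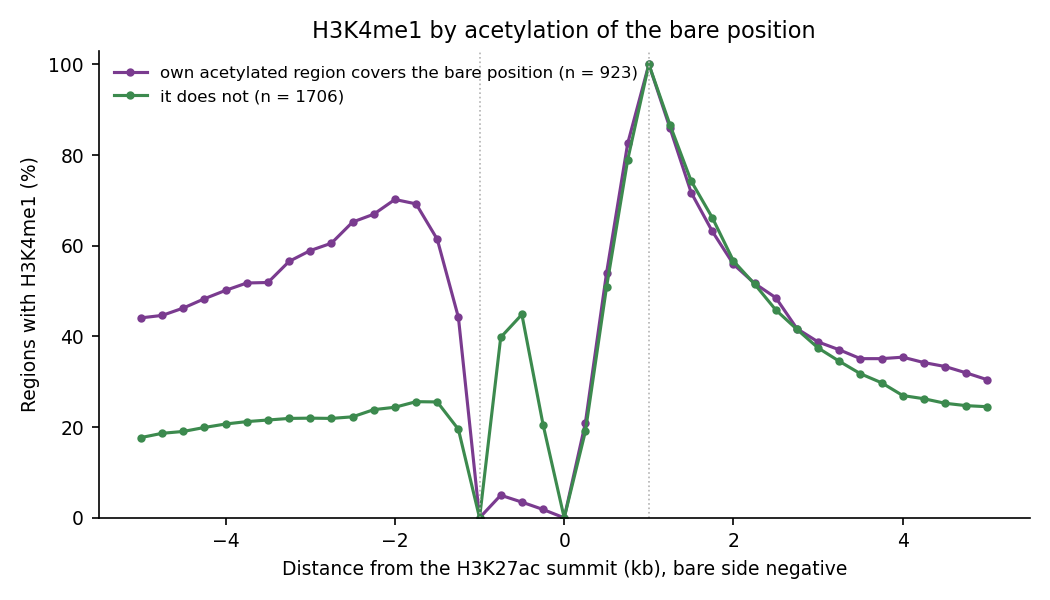
Share of members with H3K4me1 (vertical axis, percent) by distance from the summit in kb with the bare side negative, for the 923 members whose acetylated region covers the bare position and the 1706 where it does not. The lines nearly coincide on the marked side out to 3 kb and lie at 70.2% and 24.4% at 2 kb on the bare side.

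Over all members the acetylated region reached farther on the marked side in 1400 of 2629 (53.3%, interval 51.3 to 55.2%), with a median difference of 51 bp (quartiles -548 and 538 bp). This small excess sums arrangements of opposite direction, and it turned to 29.0% with the positions set at 500 bp and to 26.8% in regions of 2000 bp or more. The reach was also counted toward the side with the farther H3K4me1 edge. In the second, the third and the fourth arrangement that side is always the bare one, so their counts are the complements of the marked-side counts above and add no further observation. In the first the marked edge was the farther one by median (503 against 327 bp), so its count is not independent of the marked-side count either. Acetylation reached farther toward the side with the farther edge in 70.7% of the first (interval 67.8 to 73.4%), in 68.9% of the second (interval 66.1 to 71.6%) and in 53.2% of the third (interval 46.4 to 60.0%), but in 28.9% of the fourth (interval 23.0 to 35.4%). Both-sided summits gave 65.1% (interval 63.3 to 66.8%). Reach and edge distance are both measured from the same summit and so are not independent. These counts are therefore descriptions, and no relation between the marks is read from them.

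Members close to each other most often turned their bare sides inward. Of 57 pairs of adjacent members within 5 kb, 47 had both marked sides outward, 10 pointed the same way and 0 had both marked sides inward. In 42 of the 47 no H3K4me1 lay between the summits, so that the acetylation summits shared 1 H3K4me1-free gap. In these 42 pairs the summits lay a median of 1514 bp apart (quartiles 1010 and 2193 bp) and the gap spanned 2484 bp. At such distances the rule itself limits which arrangements can occur, since each summit must lie outside H3K4me1, so the count is a description. Of 300 pairs within 50 kb, 111 had the marked sides outward, 55 inward and 134 pointed the same way. These 300 include the 57 close pairs, which gave 47 of the 111 outward and 0 of the 55 inward pairs. The outward excess within 50 kb is thus in large part that of the close pairs, which the rule limits. The 2629 members met 2622 different H3K4me1 regions on their marked sides, so few shared a flank.

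The 6 members of highest fold belonged to the first 2 arrangements, which held 2193 of all 2629 members (83.4%). The highest lay on chromosome 5 from 115938787 to 115940321, at 43.4-fold with 146 reads. Its marked flank began 494 bp from the summit (9.27-fold, 43 reads). Its bare side held an H3K4me1 region of 242 bp, 160 bp from the summit (3.58-fold, 16 reads). Its acetylated region reached 1340 bp to the bare and 194 bp to the marked side, short of the marked flank and opposite to most members of the first arrangement. The next, on chromosome 4 from 137149553 to 137151387 (37.8-fold, 127 reads), had a marked flank of 7215 bp and a bare-side shoulder of 319 bp (3.16-fold, 14 reads). In both the bare-side shoulder was narrow and weak beside the marked flank.

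The third, on chromosome 12 from 53703174 to 53706489 (36.9-fold, 124 reads), was 3316 bp wide. The bare-side H3K4me1 began 1433 bp from its summit and was the stronger of its 2 flanks, at 5.48-fold against 4.05-fold. The fourth lay on chromosome 11 from 51501458 to 51503201 (35.8-fold), with a bare-side shoulder of 484 bp at 5.28-fold beside a marked flank at 5.65-fold. The fifth lay on chromosome 2 from 119302570 to 119304500 (35.5-fold), where no H3K4me1 touched the acetylated region. Its flanks began 773 bp from the summit on the marked and 1234 bp on the bare side, while acetylation ended at 731 and 1199 bp. The sixth, on chromosome 13 from 59923375 to 59925911 (34.6-fold), had a 6640 bp wide H3K4me1 region beginning 1856 bp away on its bare side, at 7.67-fold against 5.37-fold on the marked side. In the third and the sixth the side called bare thus had the stronger H3K4me1.

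The widest members reached farther to the bare side. The widest, on chromosome 17 from 28144379 to 28159411, was 15033 bp wide at 25.1-fold. Its summit lay 479 bp from the marked end and 14553 bp from the bare end, and the acetylated region ran through a bare-side H3K4me1 region of 5413 bp and 10.7-fold that began 2065 bp from the summit. The second, on chromosome 4 from 102239186 to 102248478 (9293 bp, 22.9-fold), reached 4178 bp to the marked and 5114 bp to the bare side. The third, on chromosome 6 from 52176395 to 52184807 (8413 bp, 10.9-fold), reached 883 and 7529 bp, and its flanks were weak, at 3.83-fold and 2.72-fold. The first and the third were also the members of largest difference in reach toward the bare side. They were followed by a region on chromosome 6 from 31165351 to 31171337, which reached 5167 bp to the bare and 819 bp to the marked side and whose local background was 1.39 times the genome-wide level.

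Reach toward the marked side was largest on chromosome 11 from 90409131 to 90414326, with 4461 bp against 734 bp. It was followed by chromosome 2 from 4476688 to 4481066, with 3930 bp against 448 bp, and chromosome 10 from 80139437 to 80143409, with 3697 bp against 275 bp. The first 2 stood on a raised local background, 1.58 and 2.38 times the genome-wide level, with summits of 7.35-fold and 6.74-fold. Of all members, 493 (18.8%, interval 17.3 to 20.3%) had a local background over 1.05 times the genome-wide level, against 16.8% of both-sided summits and 31.9% of summits inside H3K4me1. The part of raised background in these differences was not tested.

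The widest H3K4me1 regions on a marked side were long blocks with many acetylated regions. The widest spanned 27.3 kb beside a member on chromosome 8 from 97500207 to 97504938 (13.0-fold) and met 12 other H3K27ac regions. The second spanned 24.3 kb beside chromosome 4 from 138748836 to 138750455 (12.7-fold) and met 14 others. The third, also 24.3 kb and meeting 12 others, lay beside chromosome 1 from 134287791 to 134288907 (7.09-fold), where the next H3K4me1 on the bare side was 18.9 kb away. Such blocks were the exception, since the marked-side H3K4me1 region met another H3K27ac region in 634 members (24.1%, interval 22.5 to 25.8%).

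The longest bare sides ran without H3K4me1 and with at most 1 other H3K27ac summit before it. The member on chromosome 13 from 86185360 to 86186408 (19.5-fold, 65 reads) had its next bare-side H3K4me1 2748 kb away and no other H3K27ac summit before it, and its marked flank was weak (3.45-fold, 17 reads). On chromosome 9 from 18096010 to 18097974 (14.2-fold) the distance was 1003 kb, again without another H3K27ac summit. On chromosome 13 from 85328353 to 85330401 (15.1-fold) it was 431.0 kb, with 1 other H3K27ac summit on the way. All 3 were well supported in H3K27ac, with 47 to 65 summit reads.

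The members nearest to the width limit are given for both sides of it. Just inside lay chromosome 4 from 100741693 to 100742692 (1000 bp, 6.21-fold) and chromosome 17 from 78816510 to 78817510 (1001 bp, 10.9-fold). Just outside, and otherwise meeting the rule, lay chromosome 16 from 45653338 to 45654336 (999 bp, 6.80-fold) and chromosome 19 from 32559666 to 32560664 (999 bp, 17.1-fold).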

How the data were processed

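Peak lists of H3K27ac and H3K4me1 were used, 1 library each, grouped by the sample titles. Per the submitters' processing notes, Bowtie2 2.0.6, MACS2 2.0.10.20131216 and build mm9 were used. Their filters, options and controls are not stated. Each deposited row holds a position, a summit offset, the authors' fold ratio of summit pileup to local background, and −log10 values of p and q as the authors gave them. The deposited score was not used. Summit reads and local background were recovered from fold and −log10 p, taking fold as (reads + 1)/(background + 1) and p as a Poisson tail. With whole reads the recomputed −log10 p differed by under 0.001 from the deposited one at each of 14098 H3K27ac and 10885 H3K4me1 summits. The genome-wide background was 2.38 and 3.75 reads.

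Members were found by the stated rule. Distances run from the H3K27ac summit to the nearest base of an H3K4me1 region. The interval functions were tested on simulated regions. The members, groups and named regions were chosen with earlier results of these data known. Named regions, off chromosome 18, were the 6 of highest fold and the 2 or 3 at each extreme described. Alternatives changed the flanking distance, the width, the q limits, the joining of H3K4me1, the summit and the chromosomes. Gene starts and sequences were not used, because the tables at hand are on GRCm38. Scripts ran in Python 3.11.15 with pandas 2.3.3, numpy 2.4.6, matplotlib 3.10.9 and scipy 1.17.1.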

Additional observations from a re-analysis of the deposited data

Results flagged for a closer look

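Regions of the same arrangement appeared on chromosome X, which the results above leave out. There were 50 there, with a median of 10.05-fold (range 4.73 to 20.7). Of the 140 H3K27ac regions of 1000 bp or more on chromosome X, 118 had their summit outside H3K4me1, and 50 of these were one-sided, 14 both-sided and 54 at neither position. On the bare side 22 of the 50 had no H3K4me1 within 2 kb. The classes stood otherwise on the autosomes, where 6066 of 14098 such regions (43.0%) had their summit outside H3K4me1. Of these 6066, 43.3% were one-sided, 47.9% both-sided and 8.74% had H3K4me1 at neither position. Among the autosomal members, 436 of 2629 (16.6%) had no bare-side H3K4me1 within 2 kb. The cause of these differences was not tested, and the input library was not analysed.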

How the results depend on the processing

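Of 54 alternative values under 11 settings, 23 stayed within the interval, within a factor of 1.5 (counts) or within 0.01 (ratios), 25 moved and 6 turned direction. The 2 settings that test a whole stretch were chosen after seeing the data. The number of members (2629) became 4720 with a width of at least 500 bp, 770 with 2000 bp and 584 when exactly 1 side had any H3K4me1 within 2 kb. The one-sided share of bare summits (43.3%) was 53.5% with the positions at 500 bp and 53.5% at 2000 bp, 46.8% with a width of 2000 bp, 46.2% with H3K4me1 −log10 q of at least 5, 40.5% from region midpoints, and 29.8% and 9.63% when any H3K4me1 within 1 or 2 kb counted. The share acetylated farther toward the marked side (53.3%) was 29.0% and 63.3% with the positions at 500 and 2000 bp, 59.1% and 26.8% with widths of 500 and 2000 bp, and 36.8% and 57.7% with any H3K4me1 within 1 or 2 kb. It is undefined from midpoints. The ratio of median fold to both-sided summits (0.977) was 1.17 and 1.05 at 500 and 2000 bp, 0.875 and 1 with widths of 500 and 2000 bp, 0.994 with H3K27ac −log10 q of at least 10, 0.995 from midpoints, and 1.02 and 0.930 with any H3K4me1 within 1 or 2 kb. The share with bare-side H3K4me1 within 5 kb (91.7%) was 95.4% and 95.005% at 500 and 2000 bp, 85.8% and 97.0% with widths of 500 and 2000 bp, 76.5% with H3K4me1 −log10 q of at least 5, and 86.1% and 51.4% with any H3K4me1 within 1 or 2 kb. Of the members, 1439 were one-sided with the positions at 500 bp, 435 of these with the sides exchanged, and 1408 at 2000 bp, 495 of these with the sides exchanged. The cause was not tested. No paired analysis was possible because the files used here hold 1 library per mark. No H3K4me1 flank under 10 summit reads was listed on the bare side, and none under 11 on the marked side. H3K4me1 of fewer reads could thus be missed on either side, and the part of depth was not tested.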

Other observations

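One-sided regions were found on every autosome. Among summits outside H3K4me1 their share ran from 34.1% on chromosome 19 (77 of 226) and 36.9% on chromosome 8 (116 of 314) to 49.6% on chromosome 13 (121 of 244) and 52.8% on chromosome 3 (167 of 316). The higher-coordinate side was marked in more members than the lower on 10 of 19 autosomes, with the highest share on chromosome 13 (77 of 121, 63.6%) and the lowest on chromosome 8 (54 of 116, 46.6%). Chromosome Y held 1 such region.

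Membership turned over quickly with distance from the summit. With the positions at 750 bp, 58.3% of the members were one-sided with the same marked side and 21.9% both-sided. At 1500 bp the values were 45.9% and 27.4%, and at 3000 bp 24.9% and 13.0%, while 21.9% had the sides exchanged and 40.1% had H3K4me1 at neither position.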
